A study of Brassica rapa with 6 samples.

Results

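Amino acid transporters and WAT1-related proteins were examined in petiole and leaf of *Brassica rapa*, in the vegetable sold as baby Chinese cabbage. The members were the loci of the deposited table that carry 1 annotated gene name and whose description names an amino acid permease, an amino acid transporter, a lysine histidine transporter, a proline transporter, a GLUTAMINE DUMPER or a WAT1-related protein. This gave 148 of 49200 loci. One further locus with such a description was left out because it merged several gene names. The members were 66 WAT1-related loci, 16 amino acid permeases, 13 lysine histidine transporters, 3 proline transporters, 12 cationic amino acid transporters, 12 glutamine dumpers and 26 other amino acid transporters.

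The study sampled petioles, the stalks that carry the leaf blades, and leaves from mature, untreated plants of 1 inbred line, with 3 RNA sequencing libraries of each tissue. Ribosomal RNA was removed and strand was kept in the libraries. Nothing in the labels says that the numbered libraries of a tissue are from different plants, so p-values here measure only how far these samples scatter, which may be technical scatter. The age of the plants in days is not given.

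Plants move organic nitrogen between organs as amino acids in xylem and phloem, and membrane carriers decide which cells take them up or release them. Amino acid permeases and lysine histidine transporters import amino acids with protons. Proline transporters carry proline, betaine and GABA, and cationic amino acid transporters carry mainly basic amino acids across the plasma membrane or the membranes of organelles. Glutamine dumpers are small proteins that cross the membrane once, and plants of *Arabidopsis thaliana* that overproduce them export more amino acids. WAT1-related proteins, called UMAMITs in *A. thaliana*, include facilitators that let amino acids out of cells, while WAT1 itself exports auxin from the vacuole. In bulk tissue, fewer cells of a type and less RNA per cell cannot be told apart.

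Of the 148 members 96 had enough counts to be tested, or 64.9%, against 64% of all loci. In petiole 39 of these 96 members were higher and 29 were lower than in leaf, and 28 did not pass the test. Over all loci 62.6% passed in either direction. As shares of the members tested these are 40.6% higher and 30.2% lower. Among all 31473 loci tested, 31.5% were higher and 31.1% lower in petiole, so the share of members higher in petiole lay above the background and the share lower lay close to it. At least 2-fold higher in petiole were 29 members, where the background was 17.2%, and at least 2-fold lower were 19, where it was 17.3%. The median log2 fold change, petiole over leaf, was 0.43 over the members tested and 0.01 over all loci tested. In 76 of the 96 members the petiole and leaf libraries did not overlap, which held for 71.3% of all loci tested. A locus with few counts in both tissues could not enter, so these counts describe the loci with counts and not the whole families.

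These calls come from edgeR's quasi-likelihood test with Benjamini-Hochberg adjusted p-values (adjusted over the 31473 loci) at a threshold of 0.05, and "edgeR adjusted p" below means this value. The counts were scaled by TMM, a method that assumes that most loci do not differ. FPKM, by its name a level per transcript length and sequencing depth, stands on another scale, which moves petiole up against leaf by 0.74 (log2). Relative FPKM per count unit was 1.04 to 1.17 in petiole and 0.888 to 0.916 in leaf, although petiole count totals were mostly larger. Deposited FPKM was therefore not scaled by the count totals of these libraries, and what set its scale is not given. On deposited FPKM 61 members were higher and 14 lower in petiole with limma, where the background was 58.7% and 16.1%. The median log2 fold change there was 0.52 over the members and 0.47 over all loci, and without a filter on low values it was 0.31 over the members and 0.36 over all loci. All 39 members called higher on counts were called higher there too, while 7 of the 29 called lower had the higher FPKM mean in petiole, and 4 of these were called higher. Levels below are FPKM multiplied by 1 factor per library so that they stand in the proportion of the TMM-scaled counts, and are called rescaled FPKM.

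**Figure D1:**
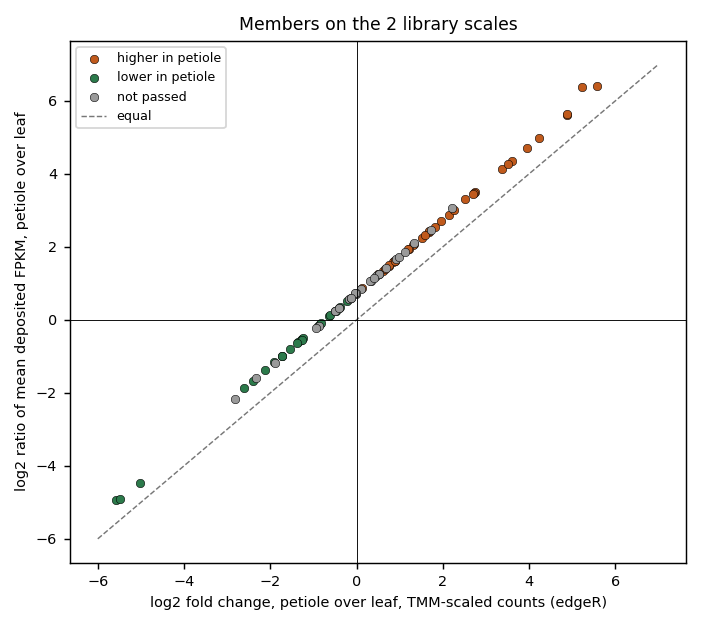
For each tested member with counts in both tissues, the log2 fold change of the TMM-scaled counts (x axis) is set against the log2 ratio of the mean deposited FPKM (y axis), both petiole over leaf. The points run parallel to the dashed line of equality and above it by about 0.74, and the members above 0 on the y axis but below 0 on the x axis change direction with the scale.

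**Figure D2:**
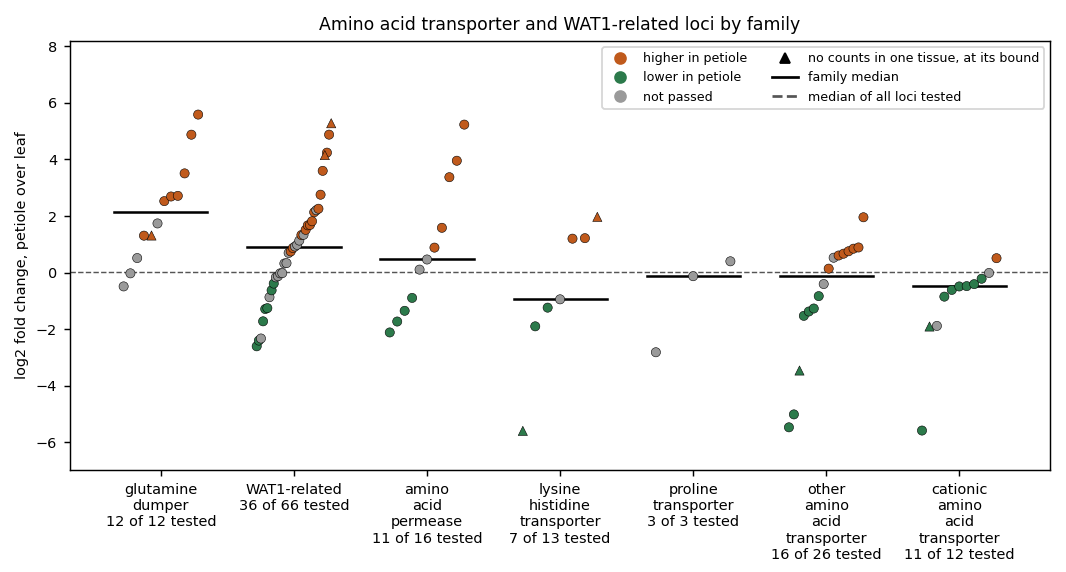
Each point is 1 tested locus, placed by its family (x axis) and its log2 fold change, petiole over leaf, on TMM-scaled counts (y axis). Triangles are loci with no counts in 1 tissue, placed at the bound of their fold change. The thick lines are family medians that use these bounds, 2.13 for the glutamine dumpers. No glutamine dumper was lower in petiole, whereas 8 of the 11 cationic amino acid transporters tested were, 5 of them with the higher deposited FPKM mean in petiole.

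The plot of fold changes by family gives each tested locus; no test was made between families. Summed over all members the level was 642 ± 8.29 rescaled FPKM in petiole and 482 ± 6.23 in leaf (SD, n = 3 each). The WAT1-related loci made up 228 of this in petiole and 148 in leaf.

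Glutamine dumpers had the most one-sided change, with 8 of 12 loci higher in petiole and none lower. Over all loci tested 31.5% were higher and 31.1% lower. All 12 were tested, and their median log2 fold change was 2.61, or 2.13 with the locus absent from leaf set at its bound. Their summed level was 40.1, 40.8 and 37.3 rescaled FPKM in petiole libraries 1, 2 and 3, against 5.42, 5.95 and 6.65 in leaf libraries 1, 2 and 3. Every petiole library was therefore far above every leaf library. In *A. thaliana* glutamine dumpers act with LOG2, a ubiquitin ligase, and both LOG2 loci tested here did not pass. One of them, BraA05g036840.3C, had 6.40 ± 0.784 rescaled FPKM in petiole and 5.54 ± 1.55 in leaf (SD, n = 3 each). The other, BraA01g040570.3C, had 1.87 ± 1.05 in petiole and 4.11 ± 0.592 in leaf, with a log2 fold change of -1.13 (SE 0.507, edgeR adjusted p = 0.104).

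GLUTAMINE DUMPER 2 carried the largest part of the family's level in petiole, 40.1% of its sum. This locus, BraA01g016470.3C at A01:8729198-8729614 on the plus strand, had 15.3, 17.2 and 14.9 rescaled FPKM in petiole against 0.201, 0.850 and 0.521 in leaf. All 3 petiole libraries were high and all 3 leaf libraries close to the bottom of the measured range. Its log2 fold change was 4.88 with an SE of 0.387 (edgeR adjusted p = 4.62e-06). A second copy described as GLUTAMINE DUMPER 2-like, BraA03g052750.3C at A03:27313403-27313819, had 8.30, 9.77 and 8.84 rescaled FPKM in petiole against 0.824, 0.436 and 1.09 in leaf. The tissues did not overlap at this copy either, with a log2 fold change of 3.51 (SE 0.321, edgeR adjusted p = 4.05e-06).

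Both loci described as GLUTAMINE DUMPER 6-like were higher in petiole. BraA02g039230.3C had 2.55, 3.80 and 4.0 rescaled FPKM in petiole against 0.0631, 0.137 and 0 in leaf. That rested on 177 fragments in petiole and 3 in leaf, a ratio of 43.2 with a 95% counting interval of 14.5 to 211. The leaf level is thus known only to lie far below that of petiole. BraA06g036110.3C had 0.658, 0.665 and 0.434 rescaled FPKM in petiole and no counts in any leaf library, at least 2.51-fold higher against a floor of 3 fragments per library (edgeR adjusted p = 0.00402). Intervals and floors cover counting error only.

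The remaining dumpers were low in both tissues. GLUTAMINE DUMPER 3-like BraA03g012310.3C had 3.29, 2.29 and 2.11 rescaled FPKM in petiole against 0.457, 0.382 and 0.313 in leaf (log2 fold change 2.71, SE 0.436, edgeR adjusted p = 0.000298). GLUTAMINE DUMPER 1-like BraA03g056920.3C had 1.54, 1.02 and 1.34 against 0.0891, 0.127 and 0.381 in leaf (log2 fold change 2.69, SE 0.731, edgeR adjusted p = 0.00823). In both the petiole libraries stood above all leaf libraries. A further GLUTAMINE DUMPER 3-like locus, BraA10g015770.3C, had 0.469, 1.08 and 0.602 rescaled FPKM in petiole against 0.166, 0.0333 and 0.164 in leaf. It passed with an edgeR adjusted p of 0.0218 and did not pass without petiole library 2 (edgeR adjusted p = 0.113).

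GLUTAMINE DUMPER 7-like BraA04g011270.3C had 3.88, 1.82 and 2.45 rescaled FPKM in petiole against 0.882, 1.12 and 1.25 in leaf. Its petiole libraries were spread widely, though all 3 lay above the leaf libraries, and its log2 fold change was 1.30 (SE 0.468, edgeR adjusted p = 0.0321). Without petiole library 1, petiole library 3, leaf library 1 or leaf library 2 it did not pass, with edgeR adjusted p-values of 0.173, 0.0548, 0.0761 and 0.0572.

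The other 4 dumpers did not pass edgeR's test. GLUTAMINE DUMPER 1 BraA01g006180.3C had 0.741 ± 0.255 rescaled FPKM in petiole and 0.221 ± 0.310 in leaf (SD, n = 3 each; edgeR adjusted p = 0.252), and it passed without leaf library 2 (edgeR adjusted p = 0.0374). Its log2 fold change of 1.74 had an SE of 1.25, and it passed with limma on rescaled FPKM (adjusted p = 0.0364) and on deposited FPKM (adjusted p = 0.00581). GLUTAMINE DUMPER 4 BraA09g053510.3C had 1.13 ± 0.276 in petiole and 0.787 ± 0.303 in leaf, and passed as higher in petiole on deposited FPKM (limma adjusted p = 0.00712). GLUTAMINE DUMPER 5 BraA06g032260.3C had 1.04 ± 0.12 rescaled FPKM in petiole and 1.46 ± 0.395 in leaf, where it was the highest dumper. GLUTAMINE DUMPER 3-like BraA02g012100.3C had 0.370 ± 0.262 in petiole and 0.369 ± 0.197 in leaf.

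**Figure D3:**
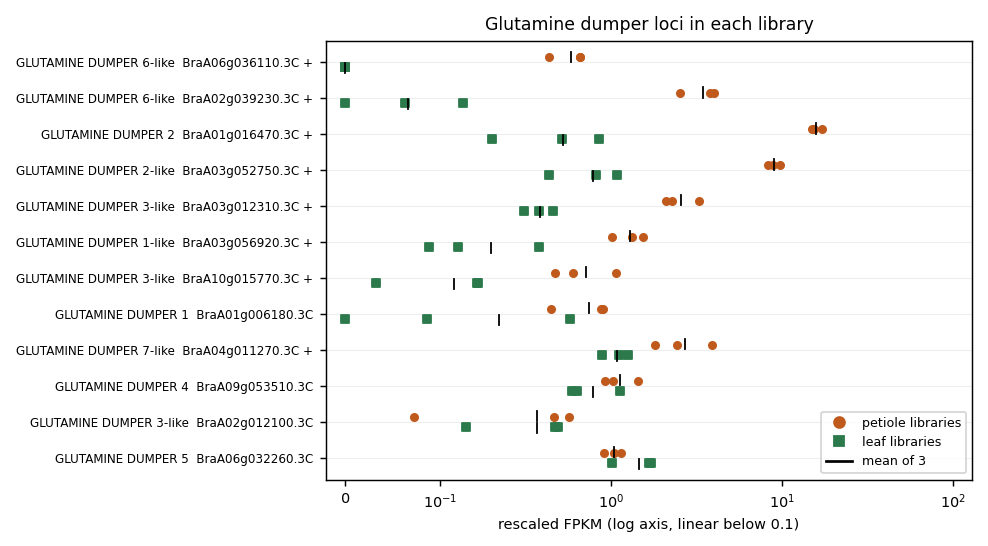
Each row is 1 glutamine dumper locus, with rescaled FPKM on the x axis (a log axis that is linear below 0.1), 3 petiole libraries as circles above 3 leaf libraries as squares, and black bars for the means. A plus after the name marks a locus higher in petiole by edgeR, and the 8 such rows have all petiole points to the right of all leaf points.

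WAT1-related loci were the largest group, and 36 of the 66 were tested. In petiole 15 were higher and 7 lower, and 14 did not pass, with a median log2 fold change of 0.90. Over all loci tested 31.5% were higher and 31.1% lower. Of the 30 not tested, 21 had no counts in any of the 6 libraries. The summed level over all 66 was 222, 236 and 227 rescaled FPKM in petiole libraries 1, 2 and 3, against 145, 145 and 152 in leaf libraries 1, 2 and 3. A single locus supplied 34.8% of that sum in petiole, and a different one 43.8% in leaf.

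The locus that led in petiole was described as At1g44800, which in *A. thaliana* is SIAR1, a facilitator that moves amino acids into and out of cells and takes part in sending organic nitrogen to developing fruits. This locus, BraA08g005780.3C at A08:4599557-4602460 on the plus strand, had 75.3, 84.2 and 79.2 rescaled FPKM in petiole against 2.69, 2.16 and 3.25 in leaf. Its petiole libraries were all high and its leaf libraries all low, and it was the highest of all members in petiole and 37th in leaf. The log2 fold change was 4.88 with an SE of 0.152 (edgeR adjusted p = 1.06e-07). A locus described as At1g44800-like on A10, BraA10g007340.3C, had 19.2, 21.7 and 17.3 rescaled FPKM in petiole against 0.704, 1.08 and 1.28 in leaf (log2 fold change 4.24, SE 0.207, edgeR adjusted p = 1.83e-07). Both copies thus changed the same way, with no overlap between the tissues.

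A pair of WAT1-related loci had counts in petiole and none in leaf. BraA07g015020.3C, described as At1g21890, had 2.48, 2.77 and 2.42 rescaled FPKM in petiole, from 479 fragments, and was at least 38.9-fold higher there (edgeR adjusted p = 2.18e-07). BraA09g065960.3C, described as At1g11460-like, had 1.13, 1.44 and 1.38 rescaled FPKM in petiole, from 218 fragments, and was at least 17.8-fold higher (edgeR adjusted p = 4.48e-06). The locus BraA09g065960.3C overlaps another locus of the table with no strand given. No source states that reads were counted by strand, so such pairs may share reads.

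A further 4 loci at least 2-fold higher in petiole are named here after their values were seen. BraA09g029120.3C (At4g08300) had 5.83 ± 0.723 rescaled FPKM in petiole and 0.479 ± 0.124 in leaf. The pair described as At2g40900-like rose together in petiole, with BraA05g001920.3C at 4.42 ± 0.500 in petiole and 0.650 ± 0.0220 in leaf. The other copy of that pair, BraA03g021720.3C, had 3.05 ± 0.161 in petiole and 0.691 ± 0.163 in leaf. BraA02g038000.3C (At3g28050) had 13.0 ± 0.894 in petiole and 5.20 ± 1.37 in leaf (SD, n = 3 each, for all 4 loci). In all 4 the lowest petiole library was above the highest leaf library.

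Among the WAT1-related loci lower in petiole, BraA09g021230.3C had the highest level of all members in leaf. Described as At5g45370-like and lying at A09:13812960-13814798, it had 26.5, 25.1 and 27.7 rescaled FPKM in petiole against 62.2, 63.8 and 67.7 in leaf. The tissues were far apart compared with the spread within each, and the log2 fold change was -1.29 (SE 0.0557, edgeR adjusted p = 1.11e-08). Its neighbour BraA09g021220.3C, described as At5g45370 and named after its values were seen, lies 8841 bases away and was also lower, with 1.13 ± 0.0522 rescaled FPKM in petiole and 2.71 ± 0.109 in leaf (SD, n = 3 each). That neighbour overlaps a locus on the other strand.

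The steepest falls among WAT1-related loci were at lower levels. BraA07g017650.3C (At3g53210) had 0.852, 1.42 and 1.03 rescaled FPKM in petiole against 7.26, 6.32 and 6.59 in leaf (log2 fold change -2.61, SE 0.200, edgeR adjusted p = 1.02e-06). BraA04g003890.3C (At3g56620-like) had 0.732, 0.630 and 0.625 against 3.41, 2.69 and 4.47 in leaf (log2 fold change -2.41, SE 0.239, edgeR adjusted p = 7.87e-06). BraA09g047280.3C (At3g56620) had 0.961, 1.09 and 1.27 against 3.95, 3.18 and 3.86 in leaf (log2 fold change -1.73, SE 0.196, edgeR adjusted p = 2.25e-05). In each of the 3 the leaf libraries were all above the petiole libraries, and each was also lower in petiole on deposited FPKM.

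**Figure D4:**
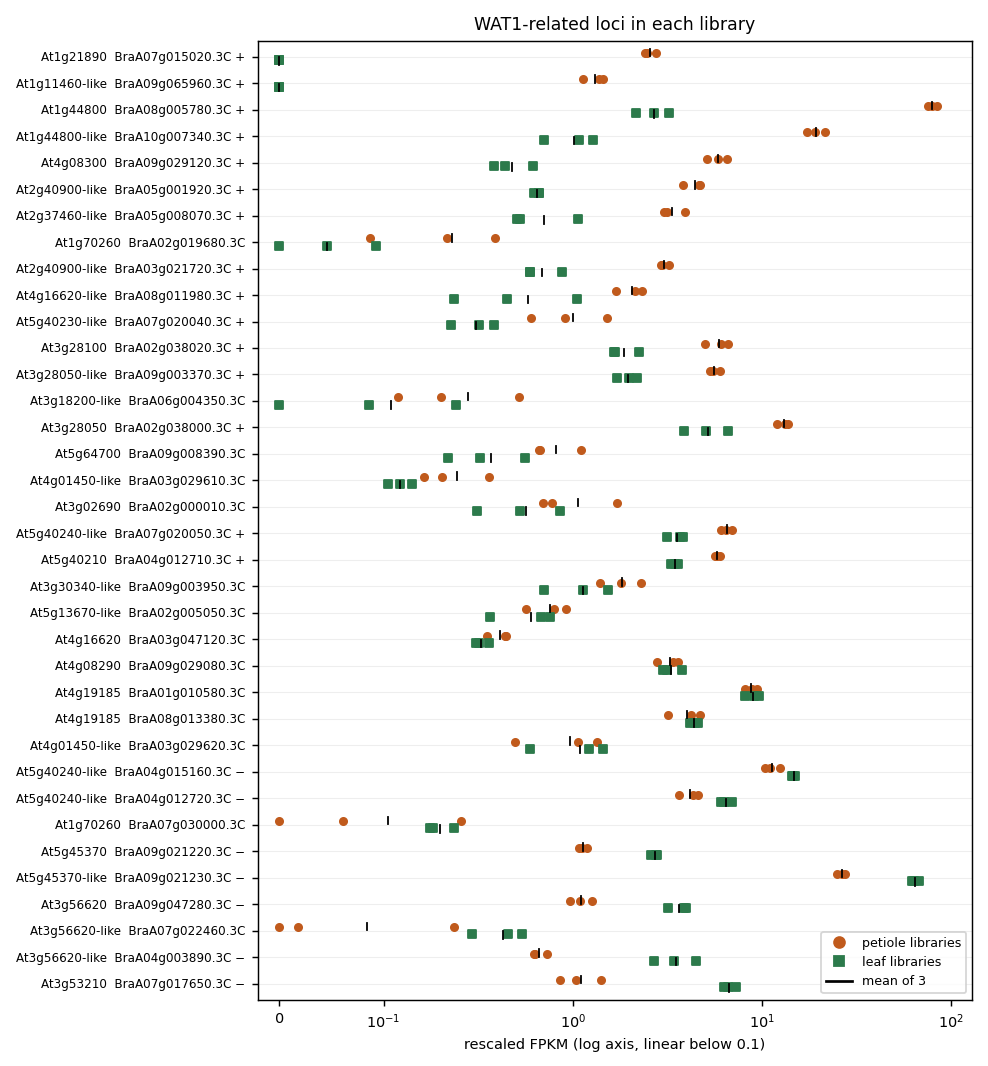
Each row is 1 of the 36 tested WAT1-related loci, ordered by fold change, with rescaled FPKM on the x axis (a log axis that is linear below 0.1), petiole libraries as circles, leaf libraries as squares and means as black bars. A plus marks a locus higher in petiole and a minus one lower by edgeR, and the widest gap at high level is that of BraA08g005780.3C, at 79.6 in petiole and 2.70 in leaf; the 2 minus rows described as At5g40240-like have the higher deposited FPKM mean in petiole.

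Loci described as At5g40240-like went both ways. BraA07g020050.3C had 6.99, 6.45 and 6.08 rescaled FPKM in petiole against 3.17, 3.68 and 3.84 in leaf (log2 fold change 0.87, SE 0.123, edgeR adjusted p = 0.000123). BraA04g012720.3C had 4.61, 3.63 and 4.31 in petiole against 6.10, 6.34 and 6.97 in leaf, with a log2 fold change of -0.63 (SE 0.0916, edgeR adjusted p = 0.000149). BraA04g015160.3C had 12.4, 11.0 and 10.4 against 15.1, 14.5 and 14.7 in leaf, with a log2 fold change of -0.39 (SE 0.0740, edgeR adjusted p = 0.000948). The direction of both loci on A04 turned on deposited FPKM, to 0.09 and 0.32, while BraA07g020050.3C was higher in petiole on both scales. The locus BraA04g015160.3C overlaps a locus on the other strand. On A07 the At5g40240-like locus sits 250 bases from BraA07g020040.3C (At5g40230-like), which was also higher in petiole at 1.01 ± 0.464 rescaled FPKM, against 0.309 ± 0.0798 in leaf (SD, n = 3 each; named after its values were seen). The next 2 loci of that run had no counts in any library.

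Amino acid permeases were called in both directions. Of 16 loci 11 were tested, with 5 higher and 4 lower in petiole and 2 not passing, where the background was 31.5% higher and 31.1% lower. Their median log2 fold change was 0.46. Their summed level was 87.2 ± 2.22 rescaled FPKM in petiole and 58.5 ± 1.72 in leaf (SD, n = 3 each). The copies of permeases 1, 3 and 4 that passed were higher in petiole, and those of permeases 2, 6 and 7 were lower.

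Amino acid permease 1, which in *A. thaliana* imports neutral and acidic amino acids into root and seed cells, led the family in petiole. BraA09g017950.3C at A09:11285775-11289914 had 35.6, 40.2 and 38.0 rescaled FPKM in petiole against 14, 11.5 and 12.5 in leaf, and ranked 3 among all members in petiole. All petiole libraries were high, with a log2 fold change of 1.58 (SE 0.0765, edgeR adjusted p = 2.71e-08). Amino acid permease 4 BraA02g044320.3C at A02:30561375-30563588 had 20.3, 21.0 and 19.5 in petiole against 1.16, 1.56 and 1.18 in leaf. Its log2 fold change of 3.95 had the lowest p of the family (SE 0.123, edgeR adjusted p = 9.48e-10). A second permease 4 locus, BraA06g027280.3C, named after its values were seen, had 59 fragments in petiole and 1 in leaf, a ratio of 43.2 with a 95% counting interval of 7.45 to 1734.

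Amino acid permease 3, an importer of basic and neutral amino acids in *A. thaliana*, was higher in petiole at a low level. BraA07g040800.3C had 2.59, 1.86 and 2.30 rescaled FPKM in petiole against 0.148, 0.189 and 0.299 in leaf (log2 fold change 3.37, SE 0.297, edgeR adjusted p = 3.01e-06). The 2 tested permease 5 loci went opposite ways on the count scale: BraA08g005920.3C (permease 5-like, named after its values were seen) had 8.50 ± 0.345 in petiole and 4.61 ± 0.229 in leaf, while BraA05g020900.3C had 5.08 ± 0.248 in petiole and 9.46 ± 0.760 in leaf (SD, n = 3 each). The fall of BraA05g020900.3C, -0.90 on the log2 scale, did not pass on deposited FPKM (-0.14, limma adjusted p = 0.136).

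Amino acid permease 6, a high-affinity importer found near xylem in *A. thaliana*, was the highest permease in leaf and lower in petiole. BraA02g016780.3C at A02:8974118-8979321 had 6.36, 6.11 and 6.49 rescaled FPKM in petiole against 21.1, 20.9 and 21.0 in leaf. Replicates were almost equal within each tissue, and the log2 fold change was -1.73 (SE 0.0624, edgeR adjusted p = 2.79e-09). Amino acid permease 2, which moves amino acids from xylem to phloem in *A. thaliana*, had 1.19, 0.746 and 0.652 in petiole against 3.65, 4.17 and 3.43 in leaf at BraA10g031070.3C (log2 fold change -2.12, SE 0.233, edgeR adjusted p = 1.74e-05). All leaf libraries were above all petiole libraries at both loci, on deposited FPKM as well.

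Of 7 lysine histidine transporters tested 3 were higher and 3 lower in petiole, and 6 of the 13 were not tested. The background was 31.5% higher and 31.1% lower. LHT1, the main importer of amino acids into mesophyll and root cells in *A. thaliana*, was lower in petiole. Its locus BraA04g013370.3C had 1.96, 1.76 and 2.14 rescaled FPKM in petiole against 7.62, 8.09 and 6.23 in leaf (log2 fold change -1.90, SE 0.145, edgeR adjusted p = 9.53e-07). LHT2, known from the anther tapetum of *A. thaliana*, had no counts in any petiole library at BraA07g012400.3C, against 2.44, 1.72 and 2.51 rescaled FPKM in leaf. It was at least 48.5-fold lower in petiole (edgeR adjusted p = 4.15e-07). LHT-like 6 BraA08g025550.3C had 1.87, 1.53 and 1.73 in petiole against 3.54, 4.59 and 4.0 in leaf (log2 fold change -1.24, SE 0.107, edgeR adjusted p = 3.38e-06). The 3 loci had no overlap between the tissues.

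Both loci described as lysine histidine transporter-like 8 were higher in petiole and together made up most of the family's level there. BraA05g020560.3C had 16.1, 14.8 and 15.5 rescaled FPKM in petiole against 5.67, 6.72 and 7.56 in leaf (log2 fold change 1.22, SE 0.104, edgeR adjusted p = 2.41e-06). BraA08g005010.3C had 11.0, 10.6 and 11.2 against 4.46, 4.13 and 5.72 in leaf (log2 fold change 1.20, SE 0.114, edgeR adjusted p = 5.76e-06). The copies changed by nearly the same factor. The other higher locus of the family, LHT-like 7 BraA03g059280.3C, was close to the floor and is named after its values were seen. It had 0.224 ± 0.173 rescaled FPKM in petiole (SD, n = 3) and 0 in leaf.

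The 3 proline transporter loci were low and did not pass with edgeR on TMM-scaled counts. The proline transporter 3-like locus BraA05g006180.3C had 1.69, 1.46 and 1.98 rescaled FPKM in petiole against 1.45, 1.26 and 1.18 in leaf (log2 fold change 0.40, SE 0.215, edgeR adjusted p = 0.133). It passed as higher in petiole with library totals (0.71, edgeR adjusted p = 0.0139) and on deposited FPKM (0.68, limma adjusted p = 0.000834). The proline transporter 1-like locus BraA05g006190.3C, 720 bases away on A05, had 2.37, 2.38 and 2.42 against 2.90, 2.27 and 2.67 in leaf (log2 fold change -0.13, SE 0.138, edgeR adjusted p = 0.442), and its sign turned with library totals and on deposited FPKM, where it passed as higher in petiole (0.44, limma adjusted p = 0.00317). Proline transporter 1 BraA04g028030.3C had 0, 0.0378 and 0.0367 in petiole against 0.291, 0.137 and 0.128 in leaf. Its leaf libraries were above its petiole libraries, but at so few fragments it did not pass with edgeR (adjusted p = 0.0795) and passed with DESeq2 (adjusted p = 0.0303).

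Cationic amino acid transporters were the one large family with more loci lower than higher in petiole on TMM-scaled counts, 8 against 1 of 11 tested. Over all loci tested 31.1% were lower and 31.5% higher. For 5 of the 8 lower loci the mean deposited FPKM was higher in petiole. The median log2 fold change was -0.49 on counts and 0.22 with limma on deposited FPKM, where the median of all loci was 0.47. The sums, set mainly by the highest loci, were 97.7 ± 1.12 rescaled FPKM in petiole and 114 ± 0.880 in leaf (SD, n = 3 each). CAT3 BraA04g010040.3C had 22.6, 21.5 and 21.3 rescaled FPKM in petiole against 31.2, 30.6 and 30.1 in leaf, the highest of the family in leaf (log2 fold change -0.49, SE 0.0478, edgeR adjusted p = 6.63e-06; 0.24 on deposited FPKM). CAT5, which imports basic amino acids in *A. thaliana*, had 8.98 ± 0.498 in petiole and 11.9 ± 0.375 in leaf at BraA04g024910.3C (log2 fold change -0.41, edgeR adjusted p = 0.000708; 0.30 on deposited FPKM). CAT9 BraA09g000870.3C had 4.25 ± 0.264 in petiole and 5.92 ± 0.951 in leaf (log2 fold change -0.48, edgeR adjusted p = 0.00597; 0.22 on deposited FPKM), and overlaps 2 other loci. The direction of CAT3, CAT5 and CAT9 thus depends on the scale. At least 2-fold lower in petiole were 2 loci of low level, named after their values were seen. CAT1-like BraA08g014510.3C had 0, 0.0245 and 0 rescaled FPKM in petiole against 0.481, 0.343 and 0.441 in leaf (log2 fold change -5.59, SE 1.25, edgeR adjusted p = 0.00683). CAT6 BraA03g001710.3C had no counts in petiole, against 0.126 ± 0.0464 rescaled FPKM in leaf (SD, n = 3), and was at least 3.72-fold lower in petiole (edgeR adjusted p = 0.00333).

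CAT8, placed at the vacuole by its description, was the one cationic transporter higher in petiole. BraA09g057960.3C had 9.74, 10.7 and 12.0 rescaled FPKM in petiole against 7.61, 7.21 and 8.04 in leaf (log2 fold change 0.51, SE 0.0941, edgeR adjusted p = 0.000800). CAT2, a vacuolar transporter and the highest of the family in petiole, had 25.6, 26.1 and 26 at BraA09g013960.3C against 26, 26.2 and 26.2 in leaf. It did not pass on TMM-scaled counts (log2 fold change -0.01, SE 0.0440, edgeR adjusted p = 0.810), while library totals gave 0.29 and deposited FPKM gave 0.70 on the log2 scale.

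**Figure D5:**
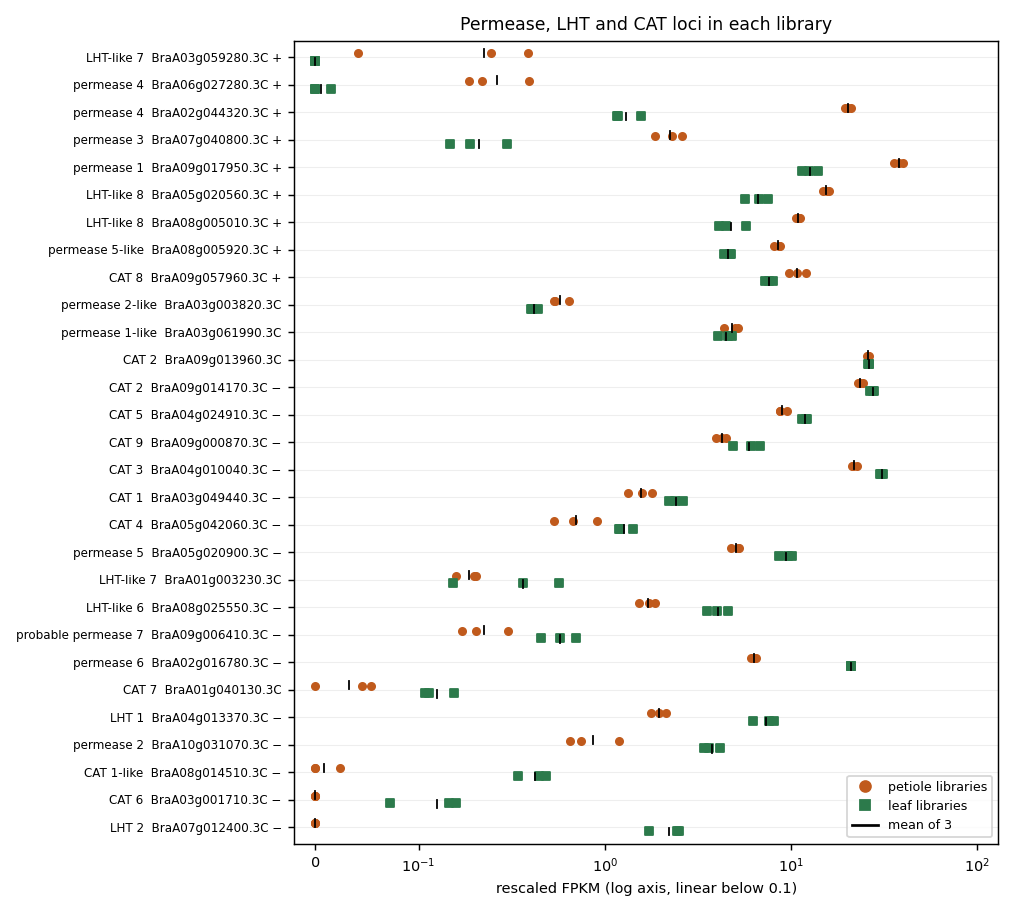
Each row is 1 tested amino acid permease, lysine histidine transporter (LHT) or cationic amino acid transporter (CAT), ordered by fold change, with rescaled FPKM on the x axis (a log axis that is linear below 0.1), petiole libraries as circles, leaf libraries as squares and means as black bars. Plus and minus mark loci higher and lower in petiole by edgeR on TMM-scaled counts; permease and LHT loci lie at both ends, while CAT loci above 1 rescaled FPKM lie near the middle, and CAT3, CAT5 and CAT9 have the higher deposited FPKM mean in petiole.

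The other amino acid transporters were 7 higher and 7 lower in petiole of 16 tested, where the background was 31.5% higher and 31.1% lower. Loci described as sodium-coupled neutral amino acid transporter 6, a name taken from the animal SNAT carriers, were the most abundant of them. BraA06g036150.3C had 54.6, 51.3 and 53.5 rescaled FPKM in petiole against 34.2, 36.2 and 34.5 in leaf, second among all members in both tissues (log2 fold change 0.60, SE 0.0451, edgeR adjusted p = 8.50e-07). Of the 7 SNAT6 loci 3 were higher in petiole, none lower, 1 did not pass and 3 were not tested. BraA09g046920.3C had 14.4 ± 0.953 in petiole and 7.79 ± 1.28 in leaf (log2 fold change 0.89, edgeR adjusted p = 7.33e-05). Both loci described as SNAT4-like were higher in petiole too, BraA07g025840.3C at 2.20 ± 0.216 against 0.564 ± 0.0786 in leaf (log2 fold change 1.96) and BraA02g025870.3C at 7.84 ± 0.425 against 4.36 ± 0.385 in leaf (log2 fold change 0.84; SD, n = 3 each).

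ANT1, a carrier of aromatic and neutral amino acids in *A. thaliana*, was lower in petiole. BraA03g035000.3C had 15.2, 14 and 14.6 rescaled FPKM in petiole against 25.4, 25.6 and 27.1 in leaf (log2 fold change -0.83, SE 0.0631, edgeR adjusted p = 9.30e-07), a difference that did not pass on deposited FPKM (-0.09, limma adjusted p = 0.168). The 2 loci described as ANTL2 were called in opposite directions, both close to the threshold. BraA06g044930.3C had 31.7, 29.7 and 31.5 in petiole against 28.8, 27.6 and 27.9 in leaf (log2 fold change 0.14, SE 0.0528, edgeR adjusted p = 0.0430), and did not pass without petiole library 1 or 3 or any 1 of the leaf libraries (edgeR adjusted p from 0.0519 to 0.112). BraA01g000030.3C had 0.285, 0.734 and 0.706 in petiole against 1.43, 0.904 and 1.86 in leaf (log2 fold change -1.27, SE 0.442, edgeR adjusted p = 0.0279), and did not pass without petiole library 1, leaf library 1 or leaf library 3 (edgeR adjusted p from 0.0615 to 0.113). The loci described as vacuolar amino acid transporter 1, a name taken from yeast, or 1-like were 11 in all, and none was called higher in petiole. Of the 3 described as transporter 1, 2 were lower and 1 was not tested. Of the 8 described as 1-like, 2 were lower, 1 did not pass and 5 were not tested. Over all loci tested 31.5% were higher and 31.1% lower. The lower loci of both descriptions were low, with mean rescaled FPKM of 0 to 0.583 in petiole and 0.193 to 1.69 in leaf. The 1-like locus that did not pass, BraA04g029110.3C, had the higher mean in petiole, 1.57 ± 0.151 against 1.09 ± 0.235 in leaf (SD, n = 3 each).

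*B. rapa* keeps several copies of many genes, and 24 descriptions were shared by 71 members. For 11 of these descriptions 2 or more copies were called. All called copies went one way for 9 of the 11 and both ways for 2, At5g40240-like and ANTL2. Descriptions were matched as written apart from isoform labels, so a name and its -like form were not counted as copies. This left out pairs called in one direction, such as GLUTAMINE DUMPER 2 and 2-like. It also left out the permease loci BraA08g005920.3C and BraA05g020900.3C, which were called in opposite directions. No share over all loci with shared descriptions is given here to compare with 9 of 11.

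Several members sat beside each other. Within 20 kb of another member were 31 of the 148. An arrangement picked after the values were seen joins members of 3 families with proline dehydrogenase, the enzyme of the first step of proline breakdown, in windows of 100 kb around 4 SNAT6 loci on A02, A04, A06 and A09. On A06, within that window, lay a proline dehydrogenase 1, the GLUTAMINE DUMPER 6-like locus, SNAT6 and an At3g30340-like WAT1-related locus. The dumper and SNAT6 were higher in petiole, while the enzyme, BraA06g036100.3C, was lower at 1.31 ± 0.310 rescaled FPKM, against 3.70 ± 0.418 in leaf (SD, n = 3 each; log2 fold change -1.50, edgeR adjusted p = 6.32e-05). On A02 the same 4 descriptions recurred, and there the enzyme, BraA02g039240.3C, was higher at 7.14 ± 0.679 against 2.95 ± 0.586 in leaf (log2 fold change 1.27, edgeR adjusted p = 3.03e-05). The A02 copy of SNAT6, BraA02g039190.3C, did not pass at 1.87 ± 0.271 in petiole and 2.48 ± 0.335 in leaf (edgeR adjusted p = 0.0839). The dumper was thus higher in petiole in both places, whereas the calls of its neighbours differed. On both A02 and A06 the WAT1-related locus had no counts in any library.

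The window on A09 held the At3g30340-like locus, SNAT6 and a proline dehydrogenase 1-like locus but no dumper. SNAT6 there, BraA09g003960.3C, had 16.6 ± 1.27 rescaled FPKM in petiole and 10.4 ± 0.798 in leaf (log2 fold change 0.67, edgeR adjusted p = 5.63e-05). The WAT1-related locus beside it, BraA09g003950.3C, was expressed, at 1.83 ± 0.442 in petiole and 1.13 ± 0.419 in leaf, and did not pass (SD, n = 3 each; edgeR adjusted p = 0.0668). On A04 the GLUTAMINE DUMPER 7-like locus lay in the window with proline dehydrogenase 2 and a SNAT6 locus that had too few counts to be tested.

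Enzymes that make and use the carried amino acids were read from the same fit. Of 33 loci of nitrogen assimilation tested, 19 were higher and 10 lower in petiole, where the background was 31.5% higher and 31.1% lower. One of the 10 was a folylpolyglutamate synthase that matched by name alone. The subdivision that follows was made after the values were seen. Both chloroplast glutamine synthetase loci, which recapture ammonium released in photorespiration, were lower in petiole, with BraA04g009580.3C at 22.2 ± 0.997 rescaled FPKM against 84.0 ± 2.05 in leaf. Cytosolic glutamine synthetases were 3 higher and 3 lower of 6 tested, and BraA03g038160.3C (isozyme 1-3-like) had 10.8 ± 1.66 in petiole and 0.398 ± 0.138 in leaf (SD, n = 3 each). Aspartate aminotransferases were 7 higher and 1 lower of 9 tested, led by BraA10g020790.3C with 122 ± 6.41 in petiole and 37.1 ± 1.15 in leaf. Glutamate synthases were 2 higher and 1 lower of 3 tested. The lower one, ferredoxin-dependent BraA10g032170.3C, had 0.816 ± 0.116 in petiole and 31.1 ± 1.36 in leaf (log2 fold change -5.25, edgeR adjusted p = 1.34e-09). Also described as ferredoxin-dependent, BraA04g029120.3C was higher, at 13.0 ± 0.136 in petiole and 6.89 ± 0.455 in leaf (log2 fold change 0.92, edgeR adjusted p = 1.71e-07). Glutamate dehydrogenases were 2 higher and 1 lower of 5 tested, and asparagine synthetases 2 higher and 1 lower of 4 tested.

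Proline metabolism had 6 loci higher and 2 lower of 10 tested. Among the carriers related to the members, 9 were higher and 2 lower of 18 tested. For both lists the background was 31.5% higher and 31.1% lower. The AUX1-type auxin transporters, proton symporters of the same superfamily as the permeases, were 7 higher and none lower of 8 tested, with BraA07g026930.3C at 13.4 ± 0.726 rescaled FPKM in petiole and 1.96 ± 0.194 in leaf (SD, n = 3 each). Polyamine transporters were 1 lower and none higher of 6 tested.

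Markers of the cell types in these organs were read as a check of the labels. Of the light-harvesting chlorophyll-binding loci 23 of 24 tested were lower in petiole and none higher, with sums of 326 to 358 rescaled FPKM in petiole and 3664 to 4045 in leaf, and 1 of them, BraA08g028350.3C, was at 0 in all petiole libraries. Of the xylem and secondary wall loci 14 of 15 tested were higher in petiole and none lower, with sums of 97.2 to 110 in petiole and 35.8 to 38.6 in leaf. Of the phloem loci 5 of 22 tested were higher and 12 lower in petiole, and 8 of the 36 phloem loci were at 0 in every library. Their sums were 160 to 167 in petiole and 474 to 477 in leaf, led by sugar transporters of the SWEET11 and SWEET12 type. Loci described as SIEVE ELEMENT OCCLUSION A-like and B were higher in petiole, whereas C and the SUC2 loci were lower. The sums of this mixed list therefore do not give the amount of phloem in each tissue. The background was 31.5% higher and 31.1% lower. The marker lists thus differed between the tissues in different directions, and their part in the members' differences was not tested. Library totals were 120805715 to 132861243 count units in petiole and 111518411 to 121161682 in leaf. About 3.77 units stood for 1 fragment, which gives 32090000 to 35290000 fragments in petiole and 29620000 to 32180000 in leaf.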

How the data were processed

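RNA of 3 petiole and 3 leaf libraries was analysed. The authors deposited 1 table of 49200 loci. Per the file headers it gives each library an estimated count, already whole so that rounding changed nothing. It also gives each library a deposited FPKM value. Per the labels' protocols RNA was isolated with Trizol and ribosomal RNA removed. Bowtie 0.12.2 and mm8, a mouse build, appear in the submitters' processing notes with no role. Which aligner, counter and *B. rapa* build were used is not given in the sources used here, and coordinates are those of the table. Deposited FPKM of 0.0001 were read as 0. Low counts piled up at multiples of about 3.77 units, taken as 1 fragment, and the main test used the undivided units. Loci without a gene name, 2843 in all, stayed in library sizes and tests. All value columns could be mapped to samples.

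Loci were filtered with filterByExpr, scaled by TMM (factors 1.095 to 1.137 in petiole, 0.885 to 0.925 in leaf) and tested two-sided with edgeR 4.0.16 in R 4.3.3 (glmQLFit with robust fitting, glmQLFTest), with tissue alone in the model and Benjamini-Hochberg adjustment over all loci tested. The biological coefficient of variation was 26.5%. The SE is the coefficient divided by the root of F. Rescaled FPKM used factors of 0.771 to 0.779 in petiole and 1.28 to 1.30 in leaf. Alternatives used limma 3.58.1 on log2(FPKM + 1), which understates changes of low loci, and DESeq2 1.42.0. The scripts were tested on simulated data. Of the loci given a 1.5-fold difference there 1.49% were recovered, against 22.4% at 2-fold and 100% at 4-fold. Every simulated locus had the same dispersion, and 67, 67 and 66 of 29866 loci were changed. In the real data 62.6% of loci passed, so these shares do not give the sensitivity of the main test.

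The members and lists were chosen with earlier results of these data known. Named loci, 49 in all, were, per family and direction, the 3 largest changes past 0.05 at a mean FPKM of 2 or more in the tissue where they were higher, the highest locus per tissue, loci absent from 1 tissue whose mean FPKM reached 1 in the other, all tested dumpers and proline transporters, and copies called in opposite directions. Related and marker lists were matched by description.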

Additional observations from a re-analysis of the deposited data

How the results depend on the processing

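Of all loci, 19711 passed, and 39 members were higher and 29 lower in petiole. With loci of a mean FPKM of at least 5, where fewer loci are tested, 10606 loci passed, with 18 members higher and 10 lower. With limma on deposited FPKM 61 members were higher in petiole for each of log2(FPKM + 1), log2(FPKM + 0.1) and log2(FPKM + 1) without a filter, and 14, 15 and 15 were lower. The deposited FPKM scale sits 0.74 on the log2 scale towards petiole. Leaving out 1 library gave 18540 to 18899 loci, 36 to 39 members higher and 26 to 30 lower. With DESeq2 size factors, and with DESeq2's own test, all 39 and all 29 were kept, and with library totals all 39 and 21 of the 29, the median of all loci then being 0.32. With limma on rescaled FPKM, chosen after seeing the data, all 39 and 28 of the 29 were kept. With counts divided by the units per fragment, 19923 loci passed, and 37 of the 39 and 26 of the 29 were kept.

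Signs that turned are given as log2 fold changes in the order log2(FPKM + 1), log2(FPKM + 0.1) and no filter. They were 0.089, 0.10 and 0.089 for BraA04g012720.3C (MSTRG.11247), 0.32, 0.34 and 0.32 for BraA04g015160.3C (MSTRG.11397), 0.24, 0.24 and 0.24 for CAT3 (MSTRG.11082), and 0.30, 0.32 and 0.30 for CAT5 (MSTRG.12022). They were 0.22, 0.26 and 0.22 for CAT9 (MSTRG.24239), and 0.70, 0.72 and 0.70 for CAT2 (MSTRG.25196), which had 0.29 with library totals. GLUTAMINE DUMPER 5 (MSTRG.17680) had 0.14, 0.25 and 0.14. The proline transporter 1-like locus (MSTRG.12986) had 0.44, 0.59 and 0.44, and 0.18 with library totals. GLUTAMINE DUMPER 3-like BraA02g012100.3C had 0.18, 0.43 and 0.18, with 0.28 for library totals and -0.46 to 0.45 when 1 library was left out. None of the turned values of both dumper loci passed.

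The deviations of same-numbered libraries correlated at 0.014, -0.010 and 6.9e-05, and 1 of 3 pairs matched best with its own number. With 3 libraries per tissue, this check cannot show whether same-numbered libraries came from the same plants. With the replicate number as a block 18683 loci passed, with 37 members higher and 28 lower. BraA04g011270.3C, BraA10g015770.3C and BraA06g044930.3C did not pass there (edgeR adjusted p = 0.0964, 0.0848 and 0.0589). Of the 52 members with too few counts to be tested, 35 were at 0 in all 6 libraries and 17 had counts in at least 1. Whether depth or absence of RNA left these loci low was not tested.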
